A study of Mus musculus with 12 samples.

Results

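The 10 Wnt ligand genes described here were Wnt2, Wnt4, Wnt5a, Wnt5b, Wnt7b, Wnt9a, Wnt10a, Wnt10b, Wnt11 and Wnt16, found by symbol among the 21556 genes of a table of RNA sequencing counts. They were chosen from results of these same libraries, with the responses to TGF-β2 in view. The values of the TGF-β2 comparisons are therefore a description of the members, and the number of members called carries no weight of its own. The other 9 mouse Wnt genes of the table were set beside them.

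RNA was sequenced from primary fibroblasts of abdominal mouse skin in 12 libraries, 3 in each of 4 groups. WT cells came from C57BL/6 mice and Nox4 KO cells from the line B6.129-Nox4tm1Kkr/J, in which Nox4, an enzyme that generates hydrogen peroxide, is disrupted in the whole animal. Cells of both genotypes were starved of serum and then left unstimulated (control) or stimulated with TGF-β2, a growth factor that turns fibroblasts into contractile myofibroblasts, at 10 ng/ml for 24 h. The age of the donor mice is not given, and neither the labels nor the methods say whether the 3 replicates of a group came from separate animals, so the errors below are those between libraries.

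Wnt ligands are secreted, lipid-modified glycoproteins that act over short distances on frizzled receptors and their co-receptors. In the canonical branch, binding to a frizzled and Lrp5 or Lrp6 stabilizes β-catenin, which enters the nucleus with TCF and LEF factors. Other Wnt ligands act through Ror and Ryk receptors on cell polarity, cell movement and calcium, without β-catenin. In skin, Wnt signals between epidermis and dermis are known for their part in hair follicle formation, dermal fibroblast fate and wound repair.

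The question was which Wnt transcripts these fibroblasts made, how the set changed with TGF-β2 and whether loss of Nox4 altered it. Total counts lay between 35118344 and 43796260 per library. Nox4 itself had 203 to 398 reads in the WT controls and 1314 to 2471 in the stimulated WT libraries, against 102 to 207 and 782 to 1175 for Nox4 KO. The log2 difference between genotypes was -0.99 unstimulated and -1.17 stimulated, and neither passed the test (edgeR, adjusted p = 0.828 and 0.838). A count over the whole gene does not show whether the disrupted exons were read, so it checks the genotype labels in part only. All 10 fibroblast markers were above 1 RPKM on average in every group. RPKM, the reads of a gene scaled to its merged exon length and to the depth of the library, is used below to compare levels between genes.

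By group mean, TGF-β2 more than doubled the summed Wnt ligand transcripts in both genotypes. The 19 Wnt genes together amounted to 32.1 ± 7.57 RPKM in WT control (SD, n = 3) and 69.6 ± 5.56 RPKM in WT with TGF-β2, a ratio of 2.17. In Nox4 KO cells the sums were 30.2 ± 6.46 and 66.5 ± 1.27 RPKM, a ratio of 2.20. In each genotype the stimulated and control ranges did not overlap. The ratio depended on the control libraries kept. Leaving out 1 library put the control mean between 28.0 and 35.4 RPKM in WT and between 26.5 and 32.4 RPKM in Nox4 KO. In bulk RNA, more cells making a transcript and more transcript per cell cannot be told apart.

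**Figure D1:**
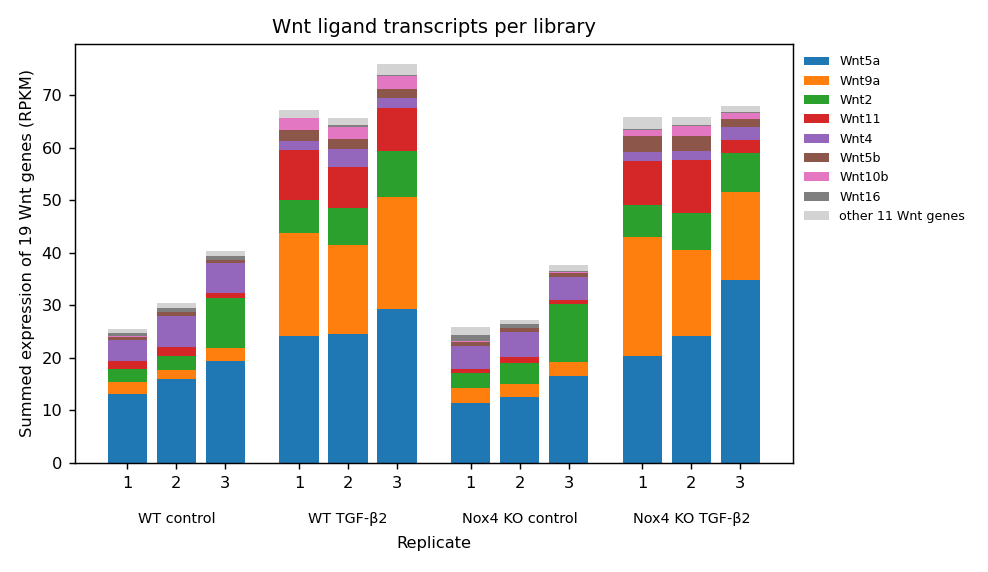
Summed expression of the 19 mouse Wnt genes in RPKM (vertical axis) in each of the 12 libraries, stacked by gene, with the replicate number below each bar. The 6 stimulated libraries reach 65.6 RPKM or more and the 6 control libraries 40.4 RPKM or less, and Wnt9a (orange) and Wnt11 (red) widen with TGF-β2 while Wnt4 (purple) narrows.

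The share of Wnt9a in the pool was larger and that of Wnt4 smaller after TGF-β2, in both genotypes. Wnt5a held the largest mean share of the summed RPKM in all 4 groups, with 50.6% ± 2.10 unstimulated and 37.3% ± 1.39 stimulated for WT, and 44.7% ± 1.21 and 39.7% ± 10.5 for Nox4 KO. The share of Wnt9a went from 6.91% ± 1.59 to 27.7% ± 1.77 in WT and from 9.17% ± 2.03 to 28.0% ± 5.56 in Nox4 KO. That of Wnt4 went the other way, from 16.5% ± 2.89 to 3.43% ± 1.46 in WT and from 15.2% ± 3.11 to 3.08% ± 0.622 in Nox4 KO. Wnt11 held 4.50% ± 1.65 and 12.3% ± 1.72 in unstimulated and stimulated WT, and 3.22% ± 0.963 and 10.6% ± 6.20 in Nox4 KO, where its stimulated replicate 3 was at 3.57%, within the control range. Wnt2 held 14.1% ± 8.05 and 10.4% ± 1.17 in WT and 18.5% ± 9.37 and 10.2% ± 0.969 in Nox4 KO, with overlapping ranges between control and TGF-β2 in WT and a close pair of bounds, 11.4% and 10.9%, in Nox4 KO.

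The order of mean levels is given among the members with more than a handful of reads. In WT control it was Wnt5a at 16.2 RPKM, Wnt4 at 5.23, Wnt2 at 4.89, Wnt9a at 2.16, Wnt11 at 1.36, Wnt16 at 0.651, Wnt5b at 0.593 and Wnt10b at 0.108 RPKM. The library ranges of Wnt4 and Wnt2 overlapped, as did those of Wnt16 and Wnt5b, so the order within these pairs was not resolved. In WT with TGF-β2 the order of these members was Wnt5a at 26.0 RPKM, Wnt9a at 19.3, Wnt11 at 8.55, Wnt2 at 7.29, Wnt4 at 2.36, Wnt10b at 2.31, Wnt5b at 1.89 and Wnt16 at 0.234 RPKM. There the ranges of Wnt11 and Wnt2 overlapped, and those of Wnt4 overlapped the ranges of Wnt10b and Wnt5b.

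**Figure D2:**
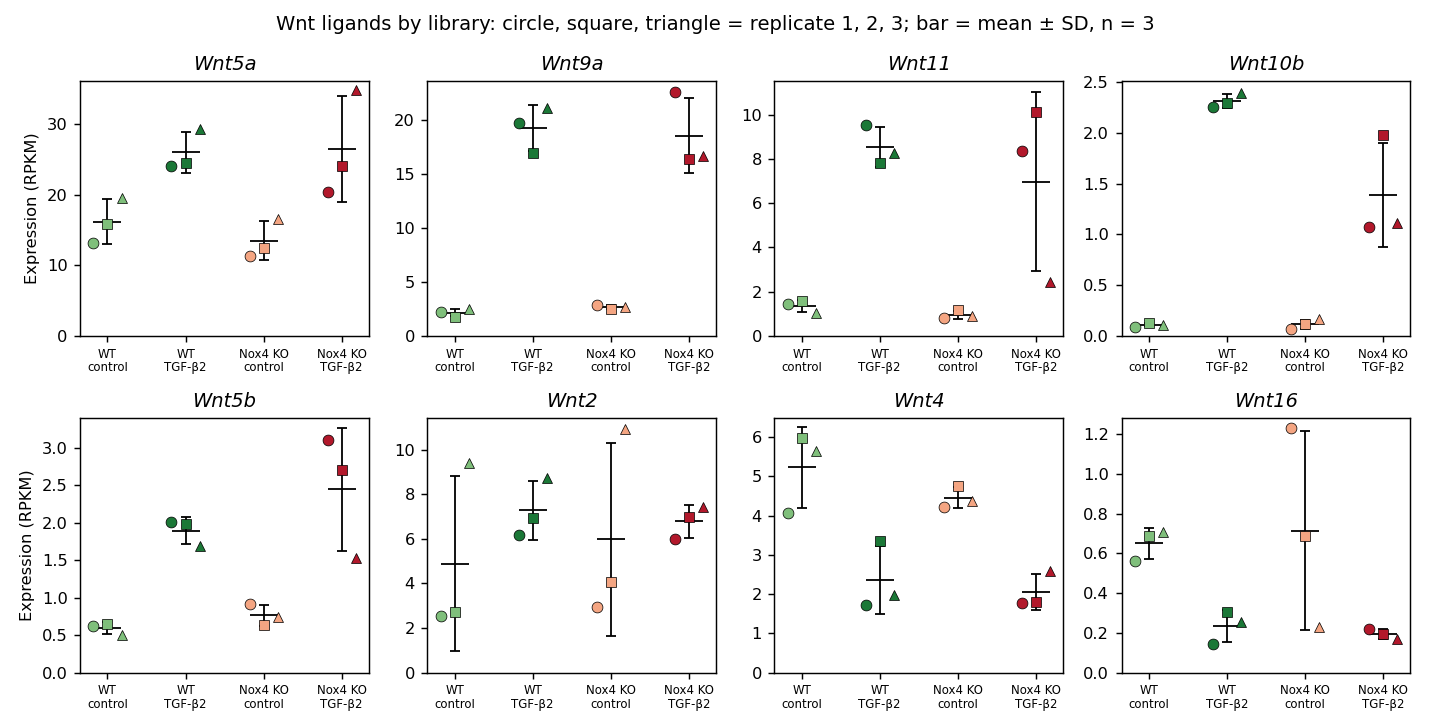
Expression in RPKM (vertical axis, from 0, with its own scale in each panel) of the 8 Wnt ligands with more than a handful of reads, by group. Symbols are single libraries, marked by replicate number, and horizontal bars with error bars are the mean ± SD of 3. Wnt9a, Wnt11, Wnt10b, Wnt5b and Wnt5a lie higher after TGF-β2 in both genotypes without overlap, Wnt4 and Wnt16 lie lower, and Wnt2 is set apart by replicate 3 of both control groups.

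Wnt7b and Wnt10a, both best known as epithelial ligands, were hardly read. Wnt7b (chr15:85535437-85582473, minus strand, GRCm38) had 20 reads over the 12 libraries, at most 4 in any, and 0 in 4 libraries. Wnt10a (chr1:74791516-74804179, plus strand) had 9 reads, at most 2 in any library, and 0 in 5. A count of 0 allows up to 3 reads, which is at most 0.0185 RPKM for Wnt7b and 0.0346 RPKM for Wnt10a. Neither gene passed a filter and neither was tested. A non-coding gene on the other strand, AU022754, shares 324 exonic bases with Wnt7b, and the strand setting of the counting is not given. Of 10 keratinocyte markers, the keratins Krt5 and Krt14 had at most 11 reads in any library and Krt1 at most 1, whereas Krt10 had 36 to 68, Dsp 8 to 164 and Ivl 21 to 443.

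The remaining 8 members were read in every library. Of these, 7 passed the limit of a mean of 1 RPKM in at least 1 group of a TGF-β2 comparison, Wnt5b and Wnt10b through the stimulated group alone in both genotypes and Wnt11 so in Nox4 KO. Wnt16 stayed under the limit. A gene was called when its adjusted p-value over all genes tested was under 0.05 and it changed at least 2-fold. In WT, 4 members were called higher and 1 lower, beside which 2.62% and 5.09% of all 10743 genes were called higher and lower. In Nox4 KO, 5 were called higher and 1 lower, where the rates over all 10809 genes were 2.22% and 4.58%. The libraries did not overlap for 5 members that were higher and 1 that was lower in each genotype, against 20.3% higher and 24.9% lower over all genes in WT and 17% and 31.5% in Nox4 KO. The median log2 fold change of the 7 members was 1.71 in WT and 1.77 in Nox4 KO, against -0.0027 and -0.0144 over all genes.

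**Figure D3:**
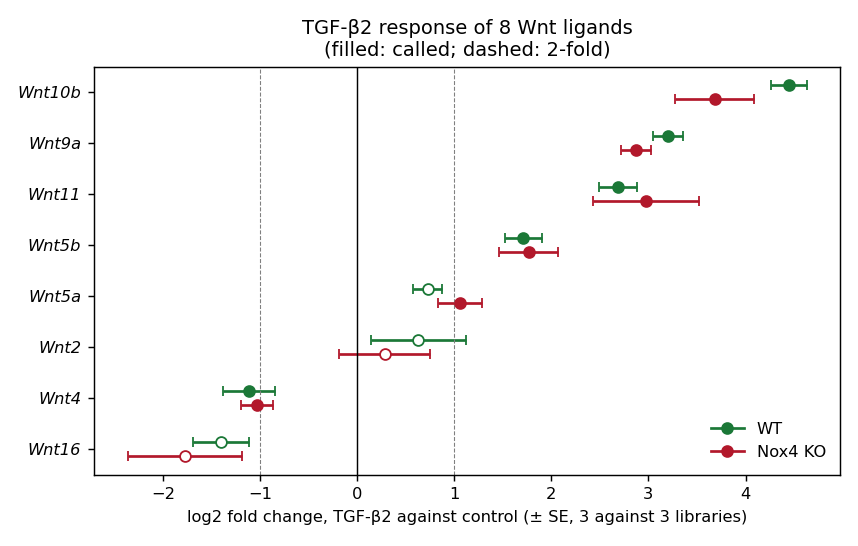
Log2 fold change of 8 Wnt ligands with TGF-β2 (horizontal axis, stimulated against control, ± SE, 3 against 3 libraries), drawn for each genotype. Filled symbols are called genes, open symbols are not called or, for Wnt16, under the expression limit, and dashed lines mark 2-fold. The 2 genotypes lie on the same side of 0 for each ligand, from Wnt10b at 4.44 and 3.68 down to Wnt16 at -1.41 and -1.77.

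The sequences just before the start sites of the 4 ligands called higher in both genotypes, and of Wnt1, the neighbour of Wnt10b, are shown because these transcripts rose together. They are the 250 bases upstream of the RefSeq start sites on GRCm38.p6, written 5′ to 3′ on the strand of the gene, and capitals mark matches, on either strand, to any of the 4 motifs spelled out after them. The promoter table held 7 of the 10 members with 10 start sites, and Wnt5a, Wnt7b and Wnt10a were not in it.
Wnt10b, chr15:98778151-98778400, minus strand: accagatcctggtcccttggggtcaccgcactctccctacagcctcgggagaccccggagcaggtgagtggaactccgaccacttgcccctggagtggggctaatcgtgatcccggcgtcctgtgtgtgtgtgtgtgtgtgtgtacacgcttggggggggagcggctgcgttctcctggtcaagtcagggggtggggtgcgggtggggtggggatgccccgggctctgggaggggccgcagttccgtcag
Wnt1, chr15:98789607-98789856, plus strand: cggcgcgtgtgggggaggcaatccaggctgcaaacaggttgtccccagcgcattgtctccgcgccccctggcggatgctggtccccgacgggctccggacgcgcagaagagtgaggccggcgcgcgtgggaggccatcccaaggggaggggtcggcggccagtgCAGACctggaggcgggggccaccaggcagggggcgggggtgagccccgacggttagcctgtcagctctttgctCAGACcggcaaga
Wnt9a, chr11:59306680-59306929, plus strand: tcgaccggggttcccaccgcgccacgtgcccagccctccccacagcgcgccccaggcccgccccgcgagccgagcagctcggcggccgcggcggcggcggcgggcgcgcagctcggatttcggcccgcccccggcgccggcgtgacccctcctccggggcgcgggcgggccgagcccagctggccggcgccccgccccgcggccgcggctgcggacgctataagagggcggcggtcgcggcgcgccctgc
Wnt11, first of 2 start sites, chr7:98834862-98835111, plus strand: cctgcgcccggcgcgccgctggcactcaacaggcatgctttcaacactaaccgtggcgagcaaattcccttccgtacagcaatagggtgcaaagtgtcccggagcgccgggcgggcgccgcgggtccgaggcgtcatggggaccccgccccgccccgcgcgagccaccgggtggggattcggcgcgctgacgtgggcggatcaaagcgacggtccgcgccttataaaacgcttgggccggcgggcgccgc
Wnt5b, first of 3 start sites, chr6:119544348-119544597, minus strand: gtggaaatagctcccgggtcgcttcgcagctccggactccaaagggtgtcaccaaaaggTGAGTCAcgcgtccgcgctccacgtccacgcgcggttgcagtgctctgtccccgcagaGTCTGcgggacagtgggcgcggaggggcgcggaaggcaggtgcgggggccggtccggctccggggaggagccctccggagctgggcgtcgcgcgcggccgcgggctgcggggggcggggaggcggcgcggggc

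CAGAC, a core that SMAD factors can bind downstream of the TGF-β receptor, occurred in 42.2% of all 32851 promoters of this length. Of the windows printed here it lay in those of Wnt1, with 2 matches, and of Wnt5b, with 1. The other start sites of Wnt5b and Wnt11, not shown, held 1 match each in the third and the second, and Wnt16, which was lower after TGF-β2, held 1. TGANTCA, the AP-1 core, occurred in 6.75% of promoters and, among the members, in Wnt5b, with no overlap with its CAGAC match. GTCTAGAC, the palindromic SMAD element, and GGAATG, the core of TEAD sites, occurred in 0.167% and 12.6% of promoters and in none of the members' windows. The windows of Wnt9a, Wnt10b, Wnt2, Wnt4 and the first of Wnt11 held none of these letters. They were rich in G and C, with 84.4% for Wnt9a and 66.8% for Wnt10b against a median of 52.4% over all promoters. A match is a description of the letters and no match says only that these letters are not in the window.

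Wnt10b showed the largest fold change of the members. It encodes a canonical ligand known from the hair follicle, from bone and for holding back fat cell formation, and lies at chr15:98770712-98778150 on the minus strand. In WT it had 11, 16 and 15 reads in the control libraries and 313, 294 and 303 after TGF-β2, or 0.0921, 0.123 and 0.109 RPKM against 2.26, 2.29 and 2.39 RPKM. Every stimulated library was thus far above every control, and the stimulated values were close to each other. The log2 fold change was 4.44 ± 0.185 (SE), a 21.8-fold rise. In Nox4 KO the counts were 9, 16 and 20 in control and 156, 294 and 160 after stimulation, with a log2 fold change of 3.68 ± 0.405. There replicate 2, at 1.97 RPKM, came nearest to the WT libraries, and replicates 1 and 3 were at 1.07 and 1.12 RPKM.

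Wnt1, which is no member, rose beside it. It encodes the founding canonical ligand, known from midbrain and bone development, and starts 11707 bases from Wnt10b in head-to-head orientation, at chr15:98789857-98793837. It had 0 or 1 read in each of the 6 control libraries, 50, 59 and 77 reads in WT and 46, 48 and 29 reads in Nox4 KO after TGF-β2. Against a floor of 3 reads in each control library it was at least 20.4-fold higher in WT and at least 12.3-fold higher in Nox4 KO. Its mean after stimulation, 0.681 RPKM in WT and 0.400 RPKM in Nox4 KO, was under the expression limit, so it was not counted as a call. Arf3, the gene on the other side of Wnt10b, lies 7498 bases away.

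Wnt9a, a ligand known for joint formation, was the member that added most RPKM. It lies at chr11:59306928-59333552 on the plus strand, 16176 bases from Wnt3a, which had at most 1 read in any library. In WT, Wnt9a was at 2.23, 1.80 and 2.46 RPKM in control and at 19.7, 17.0 and 21.2 RPKM after TGF-β2. In Nox4 KO it was at 2.89, 2.50 and 2.69 RPKM in control and at 22.6, 16.4 and 16.7 RPKM after TGF-β2. The groups did not overlap in either genotype. The log2 fold changes were 3.20 ± 0.154 and 2.87 ± 0.153 (SE), or 9.19-fold and 7.32-fold.

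Wnt11, a ligand of the branch that acts without β-catenin on cell movement and polarity, rose in both genotypes with 1 low library. In WT its counts were 184, 221 and 154 in control and 1415, 1073 and 1116 after TGF-β2, which is a log2 fold change of 2.69 ± 0.199. In Nox4 KO they were 111, 175 and 116 in control and 1307, 1611 and 372 after TGF-β2, which is a log2 fold change of 2.97 ± 0.547. Replicate 3 of the stimulated Nox4 KO libraries, at 2.43 RPKM, lay below the 8.39 and 10.1 RPKM of the other two but above all 6 controls. The value in Nox4 KO was 3.38 without that library. Without replicate 1 of the Nox4 KO controls it was 2.87 and no longer passed the test (edgeR, adjusted p = 0.0504). The exons of Wnt11 (chr7:98835112-98855195, plus strand) overlap a pseudogene on the other strand, Gm8398, by 364 bases.

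Wnt5b, a close relative of Wnt5a, rose from a low level. It lies at chr6:119432531-119544347 on the minus strand, and its introns contain Fbxl14, with which it shares no exonic base. In WT it was at 0.622, 0.652 and 0.505 RPKM in control and at 2.01, 1.99 and 1.69 RPKM after TGF-β2, which is a log2 fold change of 1.71 ± 0.190. In Nox4 KO it was at 0.916, 0.641 and 0.736 RPKM in control and at 3.10, 2.71 and 1.53 RPKM after TGF-β2, which is a log2 fold change of 1.77 ± 0.307. As for Wnt11, replicate 3 was the lowest of the stimulated Nox4 KO libraries, yet above every control.

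Wnt5a, the main ligand for Ror2 and by group mean the most abundant Wnt transcript here, rose less. It lies at chr14:28504750-28527448 on the plus strand. In WT it was at 13.1, 15.9 and 19.5 RPKM in control and at 24.1, 24.5 and 29.3 RPKM after TGF-β2, which is a log2 fold change of 0.73 ± 0.149, which passed the adjusted p limit but not the limit of 2-fold. In Nox4 KO it was at 11.3, 12.5 and 16.6 RPKM in control and at 20.4, 24.1 and 34.9 RPKM after TGF-β2, which is a log2 fold change of 1.06 ± 0.226, just past 2-fold. Replicate 3 was the highest library in all 4 groups. Leaving out 1 library at a time gave 0.60 to 0.88 in WT and 0.82 to 1.22 in Nox4 KO. The Nox4 KO call was lost without control replicate 1 (0.96), control replicate 2 (1.02), stimulated replicate 2 (1.12) or stimulated replicate 3 (0.82), and also with scaling to library size only (0.97). In WT the adjusted p rose past 0.05 without control replicate 1 (0.0573), control replicate 2 (0.0602) or stimulated replicate 1 (0.0537), by edgeR.

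Wnt4, known from kidney and reproductive tract development and also made in skin, was the 1 member called lower in both genotypes. It lies at chr4:137277489-137299726 on the plus strand. In WT it was at 4.06, 5.98 and 5.64 RPKM in control and at 1.73, 3.36 and 1.98 RPKM after TGF-β2. In Nox4 KO it was at 4.23, 4.75 and 4.37 RPKM in control and at 1.77, 1.80 and 2.58 RPKM after TGF-β2. No stimulated library reached a control library of its genotype. The log2 fold changes were -1.12 ± 0.266 and -1.03 ± 0.164, close to the limit of 2-fold. In WT the call was lost without control replicate 2 (-0.98), control replicate 3 (-1.06), stimulated replicate 1 (-0.97) or stimulated replicate 3 (-1.01). In Nox4 KO it was lost without control replicate 2 (-0.97), stimulated replicate 1 (-0.94) or stimulated replicate 2 (-0.95), and also with all 12 libraries in the fit (-0.9961).

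Wnt16, a ligand known for its role in cortical bone, was low throughout and lower after TGF-β2. It lies at chr6:22288227-22298522 on the plus strand. In WT it had 86, 114 and 124 reads in control and 26, 50 and 41 after TGF-β2. In Nox4 KO it had 205, 125 and 36 reads in control and 41, 37 and 31 after TGF-β2. The groups were well apart in WT, whereas the Nox4 KO controls spread from 0.227 to 1.23 RPKM, with replicate 3 next to the stimulated libraries. In a fit that kept genes by their counts, the log2 fold change was -1.41 ± 0.289 in WT and -1.77 ± 0.590 in Nox4 KO. The latter missed the threshold (edgeR, adjusted p = 0.0684) and passed it with the replicate number as a block (-1.62, adjusted p = 0.0153). The WT value without control replicate 2 was -1.37 and missed it (adjusted p = 0.0534).

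Wnt2, a canonical ligand known from lung and placenta, was not called, and replicate 3 of the controls decided its value. It lies at chr6:17988940-18030585 on the minus strand. In WT it was at 2.55, 2.70 and 9.43 RPKM in control and at 6.17, 6.96 and 8.74 RPKM after TGF-β2. In Nox4 KO it was at 2.93, 4.06 and 10.9 RPKM in control and at 5.98, 6.97 and 7.42 RPKM after TGF-β2. In both genotypes control replicates 1 and 2 lay below every stimulated library and control replicate 3 above. The log2 fold changes were 0.63 ± 0.493 and 0.28 ± 0.467. Without control replicate 3 they were 1.51 (edgeR, adjusted p = 0.00903) in WT and 1.03 (adjusted p = 0.0209) in Nox4 KO. The summed level of 10 macrophage markers was the highest of the WT control libraries in replicate 3, at 117 RPKM, and the lowest of the Nox4 KO controls in replicate 3, at 20.7 RPKM. The labels give no batch for these libraries.

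Of the other 9 Wnt genes, Wnt2b, a relative of Wnt2, was read at 89 to 240 reads per library, with means of 0.907 and 0.932 RPKM in unstimulated and stimulated WT and of 1.00 and 1.15 RPKM in Nox4 KO. It was not called, with a log2 fold change of 0.28 ± 0.369 in Nox4 KO. The 7 genes Wnt3, Wnt3a, Wnt6, Wnt7a, Wnt8a, Wnt8b and Wnt9b had at most 4 reads in any library.

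Nox4 KO was then compared with WT, within control and within TGF-β2. These comparisons share their libraries with those above, and no member was called in either. In control, 5 members were tested and 0 were called at any fold, and 0% of all 10767 genes were called. The libraries of 1 member did not overlap, against 13.6% of all genes, and 1 member had an unadjusted p under 0.05, against 5.54%. After TGF-β2, 7 members were tested and 0 called, against 0% of all 10439 genes. There again 1 member did not overlap, against 10.1%, and 1 had an unadjusted p under 0.05, against 3.23%. With so few members tested, 1 is the smallest count above 0 and is not read as a result about the members.

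In control, the member that did not overlap was Wnt9a, which was higher in Nox4 KO by 0.28 ± 0.137 on the log2 scale (edgeR, adjusted p = 0.828) and higher in all 3 Nox4 KO libraries than in any WT library. The member with an unadjusted p under 0.05 was Wnt11, with a log2 fold change of -0.57 ± 0.236 (unadjusted p = 0.0494, edgeR adjusted p = 0.828), from 1.36 ± 0.281 RPKM in WT to 0.944 ± 0.187 RPKM in Nox4 KO (SD, n = 3). Its ranges overlapped between the genotypes. Wnt11 lies 11.4 Mb from Nox4 on the same chromosome.

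After TGF-β2, Wnt10b was lower in all 3 Nox4 KO libraries than in any WT library when scaled to depth. Its log2 fold change was -0.72 ± 0.262 (unadjusted p = 0.0298, edgeR adjusted p = 0.838), from 2.31 ± 0.0705 RPKM in WT to 1.39 ± 0.509 RPKM in Nox4 KO. Wnt1 was also lower in all 3, by -0.75 ± 0.310 (edgeR, adjusted p = 0.863, fitted on genes kept by their counts). Wnt11 differed by -0.27 ± 0.468 (adjusted p = 0.868), a value that was 0.14 without replicate 3 of the stimulated Nox4 KO libraries. The other tested members differed by -0.17 to 0.39. Exact permutation tests of 3 libraries against 3 give no p under 0.1.

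The test of whether the TGF-β2 response itself differed between genotypes called 0 of 7 members, against 0% of all 10890 genes, and 0 had an unadjusted p under 0.05, against 2.68%. The difference in log2 response, Nox4 KO minus WT, was -0.75 ± 0.448 for Wnt10b (edgeR, adjusted p = 0.854), -0.32 ± 0.219 for Wnt9a, 0.30 ± 0.588 for Wnt11, 0.07 ± 0.365 for Wnt5b, 0.35 ± 0.293 for Wnt5a, 0.10 ± 0.328 for Wnt4 and -0.33 ± 0.749 for Wnt2. The errors were smallest for Wnt9a and largest for Wnt2, and 2 SE to either side of the value reached a 2-fold difference in response for Wnt10b, Wnt11 and Wnt2.

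Genes that carry, receive and limit Wnt signals were counted by list in the same comparisons. Beside these counts, 2.62% of all genes were called higher and 5.09% lower in WT, and 2.22% and 4.58% in Nox4 KO. A count of 1 in so short a list is not read as a result about the list. In the machinery of acylation and secretion, 0 of 9 genes were called in either genotype. Porcn, the acyltransferase that lipidates Wnt proteins, was at 3.07 ± 0.400 RPKM in WT control and 3.40 ± 0.877 RPKM after TGF-β2. Wls, the carrier that takes Wnt proteins to the cell surface, was at 145 ± 18.1 and 100 ± 6.90 RPKM, a log2 fold change of -0.49 ± 0.108 that was under 2-fold.

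**Figure D4:**
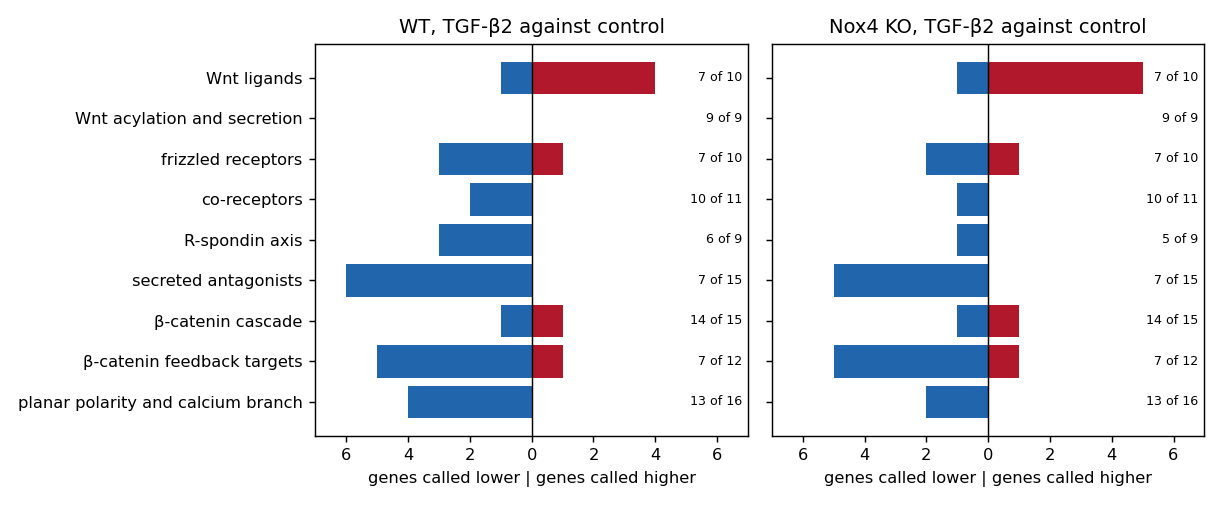
Number of genes called lower (blue, to the left of 0) and higher (red, to the right) with TGF-β2 in each genotype, for the Wnt ligands and 8 lists of Wnt pathway genes, with the number tested of the number in each list at the right. Calls among secreted antagonists and feedback targets lie mostly to the left, 6 and 5 in WT, and those among the ligands mostly to the right. The list marked secreted antagonists also holds the membrane receptors Kremen1 and Kremen2. Over all genes, 2.62% were called higher and 5.09% lower in WT, and 2.22% and 4.58% in Nox4 KO.

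Among the frizzled receptors, 7 of 10 were tested. Fzd6 was called higher in both genotypes, by 1.59 ± 0.161 in WT and 1.68 ± 0.300 in Nox4 KO on the log2 scale. Fzd4 fell by 1.58 in WT and by 1.32 in Nox4 KO, and Fzd1 fell by 1.41 and by 1.44. Fzd8 fell by 1.07 in WT, where 3 were called lower, and had a value of -0.95 ± 0.399 in Nox4 KO that missed the threshold (edgeR, adjusted p = 0.119), so that 2 were called there. Fzd7 and Fzd2 were the most abundant, at 38.0 and 29.4 RPKM in WT control and 20.4 and 37.2 RPKM after TGF-β2, changes under 2-fold.

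Of 10 co-receptors tested, 2 were called lower in WT and 1 in Nox4 KO. Ror1, a receptor for Wnt5a, fell by 1.69 ± 0.376 in WT and by 1.29 ± 0.205 in Nox4 KO on the log2 scale. Reck, which passes Wnt7 ligands to frizzleds, fell by 1.37 ± 0.145 in WT and had a value of -0.98 ± 0.175 in Nox4 KO, short of 2-fold. Ror2 had a value of 0.46 ± 0.125 in WT.

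In the R-spondin axis, which amplifies Wnt signals through Lgr receptors, 3 of 6 genes tested were called lower in WT and 1 of 5 in Nox4 KO. Lgr5, an R-spondin receptor and stem cell marker, had the largest change of this list, from 94.9 ± 55.4 to 3.15 ± 2.29 RPKM in WT (log2 fold change -4.86 ± 0.648) and from 62.6 ± 15.1 to 3.57 ± 3.28 RPKM in Nox4 KO (-4.05 ± 0.673). Rspo2 and Rspo3, the ligands of Lgr receptors, fell by 3.30 and by 1.88 in WT. Rspo2 had a value of -2.58 ± 0.945 in Nox4 KO that missed the threshold (edgeR, adjusted p = 0.0862).

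Of 15 Wnt antagonists, all secreted except the membrane receptors Kremen1 and Kremen2, 7 were tested. Of these, 6 were called lower in WT and 5 in Nox4 KO, with medians of -2.25 and -1.88 against -0.0027 and -0.0144 over all genes. Sfrp1, which binds and sequesters Wnt proteins, went from 323 ± 103 to 47.8 ± 3.75 RPKM in WT and from 307 ± 112 to 46.8 ± 2.82 RPKM in Nox4 KO. Frzb, of the same family, fell by 2.59 ± 0.245 and by 2.50 ± 0.197 on the log2 scale, and Dkk2 and Dkk3, of the Dickkopf family, fell by 2.25 and by 1.45 in WT. Sfrp4 fell by 1.88 in WT and had a value of -1.70 ± 0.826 in Nox4 KO that missed the threshold (edgeR, adjusted p = 0.167). Kremen1, a Dickkopf receptor, went the other way, with 0.60 ± 0.137 in WT and 0.77 ± 0.128 in Nox4 KO, which passed the adjusted p limit but not 2-fold. Sfrp1 alone stood above the summed Wnt ligands in control and below them after TGF-β2, on the RPKM scale of transcripts. This sets 1 antagonist beside all ligands and leaves out the others. After TGF-β2, Dkk3 and Dkk2 were still at 15.9 and 5.86 RPKM in WT and at 14.5 and 8.42 RPKM in Nox4 KO.

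Within the β-catenin cascade, 14 of 15 genes were tested, and in both genotypes 1 was called higher and 1 lower. These counts are too small to set apart from the rates over all genes. Lef1, a nuclear partner of β-catenin and itself a target, had 18 to 24 reads in WT control and 199 to 237 after TGF-β2, which is a log2 fold change of 3.42 ± 0.216, and rose by 3.10 ± 0.422 in Nox4 KO. Tcf7l2, of the same family, fell by 1.04 and by 1.08. Of the feedback targets of β-catenin, 7 of 12 were tested, 1 was called higher, which was again Lef1, and 5 were called lower in each genotype. Nkd2, an inhibitor of Dishevelled, fell by 1.60 and by 1.58, and Apcdd1, a membrane inhibitor, by 1.69 and by 1.57. Lgr5 and Dkk2 are also in this list. Axin2, the most used reporter of the pathway, was under the expression limit, at 0.925 ± 0.335 RPKM in WT control and 0.312 ± 0.0642 RPKM after TGF-β2, and at 0.781 ± 0.324 and 0.274 ± 0.0537 RPKM in Nox4 KO. The branch of planar polarity and calcium had 4 of 13 genes called lower in WT and 2 in Nox4 KO, among them Daam2, a formin, which fell by 2.26 and by 2.16, and Prickle2, a polarity protein, which fell by 1.60 and by 1.26. In none of the pathway lists was a gene called between genotypes or for the difference in response.

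The genes whose pattern across the 12 libraries was most like that of Wnt10b, by Pearson's r of log2 CPM over 10890 genes, were Rwdd4a (r = 0.986), Mllt11 (0.986), Pgf (0.985), Vstm2b (0.985) and Nop2 (0.984). For Wnt5a they were Rmc1 (0.956), Cyb5d2 (0.949), Yipf6 (0.944), Tma16 (0.944) and Hyou1 (0.943). These values are over 12 libraries that fall into stimulated and unstimulated cells and share their depth with the gene compared, and they are given as a description. Pgf, a relative of VEGF, changed by 3.71 and 3.12 on the log2 scale in WT and Nox4 KO, whereas Rwdd4a changed by 0.63 and 0.62, so a like pattern did not mean a like size.

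Markers of other cell types were summed in each library. The macrophage markers were between 13.6 and 117 RPKM with overlapping groups, yet each stimulated library was below the control of the same number. In WT, replicates 1, 2 and 3 were at 44.6, 25.9 and 117 RPKM in control and at 33.6, 21.3 and 80.7 RPKM after TGF-β2. In Nox4 KO they were at 90.4, 33.1 and 20.7 RPKM in control and at 65.5, 23.9 and 13.6 RPKM after TGF-β2. Endothelial markers were low and lower after TGF-β2 without overlap, at 2.56 to 4.38 against 1.69 to 2.48 RPKM in WT and at 3.06 to 5.54 against 2.42 to 2.95 RPKM in Nox4 KO. Adipocyte markers were lower after TGF-β2, with 19.8 to 28.5 RPKM in WT control and 6.57 to 10.3 RPKM after, and with 8.16 to 16.1 and 3.35 to 5.94 RPKM in Nox4 KO, while Adipoq had at most 13 reads. Keratinocyte markers were higher, at 1.25 to 1.96 RPKM in WT control and 2.86 to 3.98 RPKM after, and at 1.84 to 2.34 and 3.76 to 6.14 RPKM in Nox4 KO, which was mostly Ivl, a protein of the cornified envelope. Skeletal muscle markers went from between 42.0 and 98.3 to between 275 and 615 RPKM in WT and from between 87.3 and 110 to between 256 and 571 RPKM in Nox4 KO through Acta1, an actin, with Myod1 at 0 to 3 reads. Schwann cell and melanocyte markers were at 1.12 to 1.27 and 0.917 to 1.23 RPKM in unstimulated and stimulated WT, with overlap, and at 1.06 to 1.57 and 0.731 to 0.950 RPKM in Nox4 KO, without. Among the fibroblast markers, Pdgfra fell by 3.35 and by 2.98 on the log2 scale, and the sum went from between 7951 and 8618 to between 6461 and 7692 RPKM in WT and from between 7883 and 9303 to between 7089 and 8148 RPKM in Nox4 KO. The part of any of these in the Wnt values was not tested.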

How the data were processed

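The authors aligned single-end reads with STAR 2.4 on GRCm38, left out those mapping to several places and ran featureCounts 1.4.6 on protein-coding exons merged by gene. They deposited raw counts per gene, without normalization. Strand use in counting is not stated.

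Members, gene lists, motifs and alternatives were chosen with earlier results of these data known. All 21556 genes were matched by identifier to GENCODE on GRCm38. RPKM was computed from the count, the library total (35118344 to 43796260) and the length of merged coding-transcript exons. Replicates differed by more than counting noise and all 12 libraries were kept. A count of 0 allows up to 3 counts, which covers counting error only.

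Each of the 4 comparisons was fitted on its 6 libraries with edgeR 4.0.16 (R 4.3.3, limma 3.58.1) by the quasi-likelihood test after TMM normalization, on genes with a mean of at least 1 RPKM in at least 1 group, with Benjamini-Hochberg adjustment over all genes. Genes were called at 2-fold or more with an adjusted p-value below 0.05. For genotype and interaction comparisons the text counts calls at any fold. The interaction used all 12 libraries. SE was derived from the F statistic. Genes under the limit were fitted on the genes kept by filterByExpr and are not counted as calls. Single differences were also compared on log2(CPM + 0.5) by exact permutation tests, two-sided.

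The named genes are all 10 members for TGF-β2, members with an unadjusted p under 0.05 or without overlap and Wnt11 for genotype, overlapping or adjacent genes, Nox4, up to 4 called genes per list, and the 5 genes of most similar pattern for Wnt10b and Wnt5a. Wnt1, Wnt2b, Porcn, Wls, Fzd2, Fzd7, Ror2, Axin2, Sfrp4 and Kremen1 and the markers named were added after their values were seen. Deviations from the group mean correlated between control and stimulated Nox4 KO libraries of the same number (0.763, 0.688 and 0.741). Each of these matched its own number best, which was not so for every library in the other pairs of groups. The source of this likeness was not tested, and neither labels nor methods state a pairing. The main fits left the number out. Alternatives were DESeq2 1.42.0, other normalizations, other filters, no fold limit, all 12 libraries, a replicate block and leaving out each library. The procedure was tested on simulated counts.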

Additional observations from a re-analysis of the deposited data

How the results depend on the processing

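Of 219 fold changes of members with TGF-β2 under alternatives, 200 kept direction and side of the threshold. The number of Wnt ligands called lower in WT (1) was 2 with filterByExpr and with no filter, which add Wnt16, and 0 to 1 when each library was left out. In Nox4 KO (1) it was 0 with all 12 libraries in the fit, where Wnt4 was at -0.9961, and 0 to 1 on leaving out a library. The number called higher was 4 to 5 on leaving out a library in WT (5 without control replicate 3, which adds Wnt2) and 3 to 6 in Nox4 KO (3 without control replicate 1), and 4 in Nox4 KO with library size only (Wnt5a not called) or with a limit on the mean RPKM over all libraries (Wnt10b not tested). No genotype or interaction alternative called a member. Sign changes occurred for Wnt2 in Nox4 KO, which was between -0.0398 and 1.03 on leaving out a library (-0.0398 without control replicate 1), for Wnt11 between stimulated genotypes, between -0.64 and 0.14 (without stimulated Nox4 KO replicate 3), and for the interaction of Wnt11, between -0.0785 (without stimulated Nox4 KO replicate 2) and 0.70. With the replicate block the counts of called ligands were 4 higher and 1 lower in WT and 5 and 1 in Nox4 KO, and the block changed no other result of a member than the adjusted p of Wnt16 in Nox4 KO (-1.62), which then passed. For WT the correlations between libraries of the same number were 0.0619, 0.415 and 0.525. Replicates 2 and 3 matched their own number best and replicate 1 did not, so a pairing in WT was not settled.

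Over all genes, dropping the fold limit gave 1117 higher and 1308 lower in WT (282 and 547 with it) and 1637 and 1606 in Nox4 KO (240 and 495). In WT 833 genes were called lower with filterByExpr and 868 with no filter. Without stimulated replicate 2, Nox4 KO had 154 higher and 288 lower. DESeq2 called 6 genes in each genotype comparison and 6 in the interaction, none a member. Exon lengths from all transcripts gave shares of Wnt5a of 35.5% in WT with TGF-β2 and 42.5% in Nox4 KO control and a sum of 62.7 RPKM in Nox4 KO with TGF-β2. Precision was limited by 3 libraries a group and, for control Wnt10b, by 9 to 20 reads.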
